A study of Mus musculus with 24 samples.

Results

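Bone tumors of mice that received both an interleukin-27 (IL-27) plasmid and cabozantinib (cabo) were compared between the end of study (EOS) and day 14 (D14) after implantation. The comparison held 5 of the 24 tumors of the series, namely the EOS tumors of mice 16 and 28 and the D14 tumors of mice 20, 22 and 24, chosen by treatment and harvest time. All 5 mice were male C57/BL6 animals aged 8 to 10 weeks that carried 100000 TC2Ras-Luc cells per tibia. These cells are a luciferase-expressing derivative of the TRAMP-C2 mouse prostate cancer line with activated H-Ras. All 5 also received 10 µg of the plasmid encoding IL-27pepL per muscle, delivered by ultrasound, and 30 mg/kg cabo by gavage each day for 2 weeks. The D14 tumors were therefore taken at the close of dosing, and the EOS tumors after it, when each mouse reached its ethical endpoint. The day of that endpoint is not given in the sources used here, so time since implantation and time since the last dose cannot be told apart. A further 3 pairs of groups, which received a control plasmid with vehicle, IL-27 plasmid with vehicle or control plasmid with cabo, each held 3 D14 and 2 EOS intratibial tumors, and entered a joint fit that estimated the spread between tumors and tested differences in change.

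Each tumor was 1 mouse and 1 RNA-seq library of whole tumor tissue, with totals of 63729005 to 73610110 counts. In such bulk tissue, fewer cells of a type and less RNA per cell cannot be told apart. The library of D14 mouse 20 stood apart from the other D14 libraries: its correlation of log2 expression was 0.948 with mouse 22 and 0.951 with mouse 24, against 0.996 between mice 22 and 24. It also had the fewest genes detected, 21269 against 23073 to 24028 in the other 4. The mean GC content of its transcripts, weighted by level, was 50.4% against 48.9% to 49.1%. Its library scaling factor (TMM) was 0.838 against 1.003 to 1.043. Whether its values for single genes reflect the library or the tumor was not tested. Values without it are therefore given beside the main counts and list medians and for some of the named genes. Hras, the oncogene the line carries in activated form, was 83.7, 18.9 and 18.3 CPM (counts scaled by library size) at D14 (mice 20, 22 and 24, in this order in all that follows) and 20.3 and 21.1 CPM at EOS (mice 16 and 28), mouse 20 being the highest. The prostate luminal genes Hoxb13 and Pbsn had no count in any of the 5 tumors, which allows up to 0.0404 to 0.0562 CPM per library. Among the bone-forming cell markers, Ibsp, Bglap and Sost had no count either.

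Cabo inhibits the kinases of vascular endothelial growth factor (VEGF) receptors, MET, AXL and related receptors. VEGF acts on endothelial cells mainly through the receptor encoded by Kdr, and at the front of a growing vessel it raises the Notch ligand Dll4 in the leading, or tip, cell. Dll4 then restrains sprouting by the neighbouring cells through Notch. Blood vessels of bone are in addition tied to bone formation and resorption, which osteoclasts carry out. IL-27 is a cytokine that signals through its receptor and STAT factors in T cells and other immune cells.

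Many of the genes with the lowest p are known from blood vessels and were higher at EOS, and others are muscle genes that were lower. Dll4 was 16.8 and 18.8 CPM at EOS and about 1 CPM at D14, and Esm1, Flt4, Kcne3, Kdr, Emcn and Robo4 stood likewise above every D14 tumor. Genes of skeletal muscle were lower at EOS by more than 10-fold in many cases, though edgeR called 0 of the 28 muscle genes listed. The EOS tumors were above all D14 tumors in 9 of 17 osteoclast genes (all genes, 11.5%) and below all of them in 11 of 17 T-cell genes (all genes, 10.8%), with 0 called by edgeR in either list. All 28 type I interferon-stimulated genes overlapped between the harvests.

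The promoters of 4 leading vascular genes are shown because these genes moved together and lie at separate places in the genome. Each run holds the 250 bases before the RefSeq start of the gene, 5′ to 3′ on the strand of the gene, from the GRCm38.p6 assembly. Capitals mark AGGAAG on either strand, a core recognized by ETS factors, which include the endothelial factor ERG, and TGGGAA on either strand, the core recognized by the Notch effector RBPJ. The windows are chr2:119325534-119325783 (plus strand) for Dll4, chr9:102354694-102354943 (minus strand) for Ephb1, chr3:137340828-137341077 (plus strand) for Emcn and chr5:75978456-75978705 (minus strand) for Kdr.
Dll4: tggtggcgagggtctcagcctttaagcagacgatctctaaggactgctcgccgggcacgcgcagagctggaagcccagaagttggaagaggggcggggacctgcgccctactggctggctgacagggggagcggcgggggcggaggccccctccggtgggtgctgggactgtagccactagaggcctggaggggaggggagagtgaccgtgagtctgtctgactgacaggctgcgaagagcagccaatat
Ephb1: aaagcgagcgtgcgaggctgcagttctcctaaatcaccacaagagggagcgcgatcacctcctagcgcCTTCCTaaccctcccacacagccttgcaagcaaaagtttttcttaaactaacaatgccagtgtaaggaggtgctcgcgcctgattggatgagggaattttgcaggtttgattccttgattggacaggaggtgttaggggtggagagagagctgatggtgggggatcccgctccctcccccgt
Emcn: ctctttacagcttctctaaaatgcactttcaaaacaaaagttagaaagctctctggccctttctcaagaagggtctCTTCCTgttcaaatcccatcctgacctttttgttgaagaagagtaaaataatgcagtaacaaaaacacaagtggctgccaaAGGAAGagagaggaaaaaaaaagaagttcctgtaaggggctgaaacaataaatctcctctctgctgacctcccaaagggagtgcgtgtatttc
Kdr: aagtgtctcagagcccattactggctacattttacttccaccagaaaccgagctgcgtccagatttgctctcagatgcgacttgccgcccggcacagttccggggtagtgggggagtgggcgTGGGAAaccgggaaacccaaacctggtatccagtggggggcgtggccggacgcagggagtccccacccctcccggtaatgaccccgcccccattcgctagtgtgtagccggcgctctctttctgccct
Of the 12 genes with the lowest p among those higher at EOS, all 12 had a RefSeq promoter, and 5 of them held the AGGAAG letters, against 29.5% of all 32851 promoters. The TGGGAA letters were in 0 of the 12, against 21.6% of all promoters, and the window of Kdr, which is not one of the 12, held 1 match. A match is a run of letters and not a measured binding site.

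Each gene was first tested in a fit of the 5 tumors alone. Of 19365 genes tested, 0 were called higher and 0 lower at an adjusted p under 0.05 (0% in each direction; edgeR's quasi-likelihood test with Benjamini-Hochberg adjustment), with a smallest adjusted p of 0.285. An unadjusted p under 0.05 was reached by 742 of the 19365 genes, a smaller share than the 0.05 expected when no gene changes. DESeq2 called 78 genes higher and 248 lower on the same counts. With the limits that the study set for intratibial tumors, that is 1.5 or more on the log2 scale in either direction with an unadjusted p under 0.05, 142 genes (0.733%) were higher and 469 (2.42%) lower. Without mouse 20, 0 of 19002 genes were called (0% in each direction), the smallest adjusted p was 0.112, 1471 genes had an unadjusted p under 0.05, and 191 (1.01%) were higher and 468 (2.46%) lower by the limits of the study. DESeq2 called 175 higher and 379 lower in those 4 tumors.

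In a fit of all 20 intratibial tumors in 8 groups, which estimates the spread between tumors from more mice, the same comparison called 62 genes higher (0.288% of 21563) and 9 lower (0.0417%). Without mouse 20 this fit called 70 higher (0.327% of 21375) and 22 lower (0.103%), and 61 of the 71 calls of the fit with mouse 20 were among them. The verbs "rose" and "fell" are used below only for genes called in this larger fit. For a gene that was not called, values alone are given. The 2 EOS tumors were both above all 3 D14 tumors for 2236 of the 19365 genes (11.5%), and both below for 2092 (10.8%). Without mouse 20 these shares were 18.9% and 19.3%.

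Dll4 (ENSMUSG00000027314, chr2:119325784-119335962 on GRCm38), the Notch ligand of tip cells, was 0.899, 1.29 and 0.873 CPM at D14 and 16.8 and 18.8 CPM at EOS. The means were 1.02 ± 0.232 CPM (SD, n = 3) and 17.8 ± 1.37 CPM (SD, n = 2), so the harvests were far apart and the tumors within each close together. Its log2 fold change was 4.10 ± 0.38 (SE) in the 5 tumors, 4.03 without mouse 20, and 4.12 in the fit of all 20 tumors, where it rose (edgeR adjusted p = 1.66e-05). Flt4, which encodes the VEGF-C and VEGF-D receptor VEGFR3 of lymphatic and sprouting vessels, was 1.10, 1.67 and 1.97 CPM at D14 and 18.6 and 19.6 CPM at EOS. It rose as well, with a log2 fold change of 3.57 ± 0.39 (SE; 3.38 without mouse 20; 3.59 and edgeR adjusted p = 1.94e-05 in the larger fit). Esm1, which encodes endocan, a proteoglycan secreted by tip cells, was 0.281, 0.379 and 0.225 CPM at D14 and 9.85 and 6.89 CPM at EOS. Every EOS value was more than 10 times every D14 value, and the log2 fold change was 4.79 ± 0.48 (SE; edgeR adjusted p = 0.000582 in the larger fit).

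Kcne3, a potassium channel subunit found in tip cells of tumor vessels, was 0.131, 0.0948 and 0.113 CPM at D14 and 2.84 and 6.26 CPM at EOS, a log2 fold change of 5.28 ± 0.59 (SE). The D14 values lay near the limit of detection, so the size of this change is less certain than that of Dll4. Robo1, a receptor for Slit guidance cues, was 0.674, 0.745 and 0.507 CPM at D14 and 5.78 and 6.54 CPM at EOS. Ephb1, a receptor tyrosine kinase for ephrin-B ligands, was 0.206, 0.149 and 0.225 CPM at D14 and 2.96 and 2.85 CPM at EOS. Ednrb, the endothelin receptor B, was 3.71, 6.05 and 4.93 CPM at D14 and 33.4 and 26.1 CPM at EOS. These 4 genes were chosen among genes without overlap between the harvests. All 4 rose in the fit of all 20 tumors, with log2 fold changes of 5.32, 3.26, 3.90 and 2.60 in the order named. Their edgeR adjusted p were 0.000979, 7.71e-05, 5.25e-05 and 7.71e-05.

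**Figure D1:**
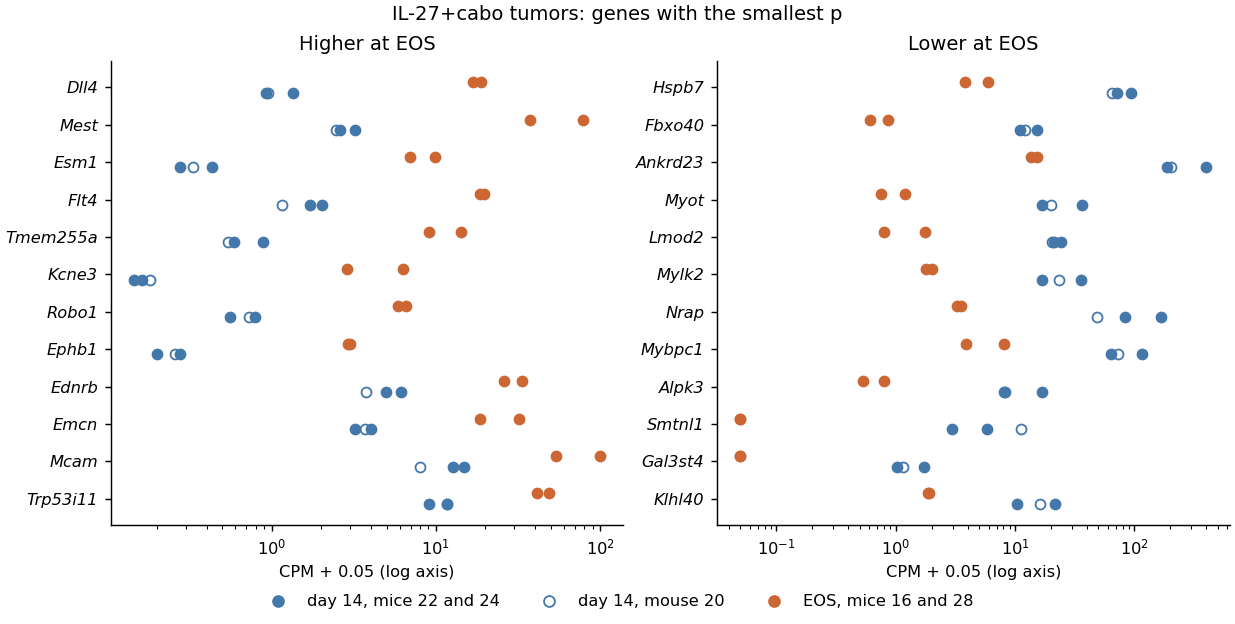
CPM of the 12 genes with the lowest p in each direction among genes chosen to have no overlap between the harvests. Each point is 1 tumor, on a log axis of CPM + 0.05, with D14 mouse 20 drawn open. The separation of the EOS from the D14 tumors in every gene shown follows from that choice. Dll4, for example, is at 16.8 and 18.8 CPM at EOS.

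Mest, an imprinted gene expressed from the paternal copy, was 2.40, 2.55 and 3.18 CPM at D14 and 37.4 and 78.3 CPM at EOS, with a log2 fold change of 4.38 ± 0.43 (SE; edgeR adjusted p = 0.000224 in the larger fit). The EOS tumors differed from each other more than the D14 tumors did, but both stood above 30 CPM. Tmem255a, a membrane protein gene, was 0.487, 0.542 and 0.831 CPM at D14 and 8.97 and 14.1 CPM at EOS. Mcam, which encodes the adhesion molecule CD146 of endothelial cells and pericytes, was 7.96, 12.7 and 14.7 CPM at D14 and 53.9 and 100.02 CPM at EOS. Trp53i11 was 11.6, 11.6 and 9.05 CPM at D14 and 48.7 and 41.3 CPM at EOS. These 3 also rose in the larger fit (edgeR adjusted p = 0.00246, 0.00360 and 0.00460).

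Kdr, which encodes VEGFR2, the main signaling receptor for VEGF-A and a target of cabo, was 3.89, 8.48 and 7.45 CPM at D14 and 27.95 and 51.0 CPM at EOS. The lowest EOS value was more than 3 times the highest D14 value. Its log2 fold change was 2.56 ± 0.45 (SE) in the 5 tumors and 2.30 without mouse 20, and it rose in the larger fit (edgeR adjusted p = 0.00298). Emcn, endomucin, a surface sialoglycoprotein of capillary and venous endothelium, was 3.63, 3.14 and 3.98 CPM at D14 and 18.6 and 32.2 CPM at EOS, a log2 fold change of 2.79 ± 0.38 (SE; edgeR adjusted p = 0.000226 in the larger fit). Pecam1, which encodes CD31, the general endothelial adhesion molecule, was 27.04, 33.8 and 40.8 CPM at D14 and 68.2 and 103 CPM at EOS. The harvests did not overlap, and its call in the larger fit (log2 fold change 1.33, edgeR adjusted p = 0.0496) was lost without mouse 20.

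**Figure D2:**
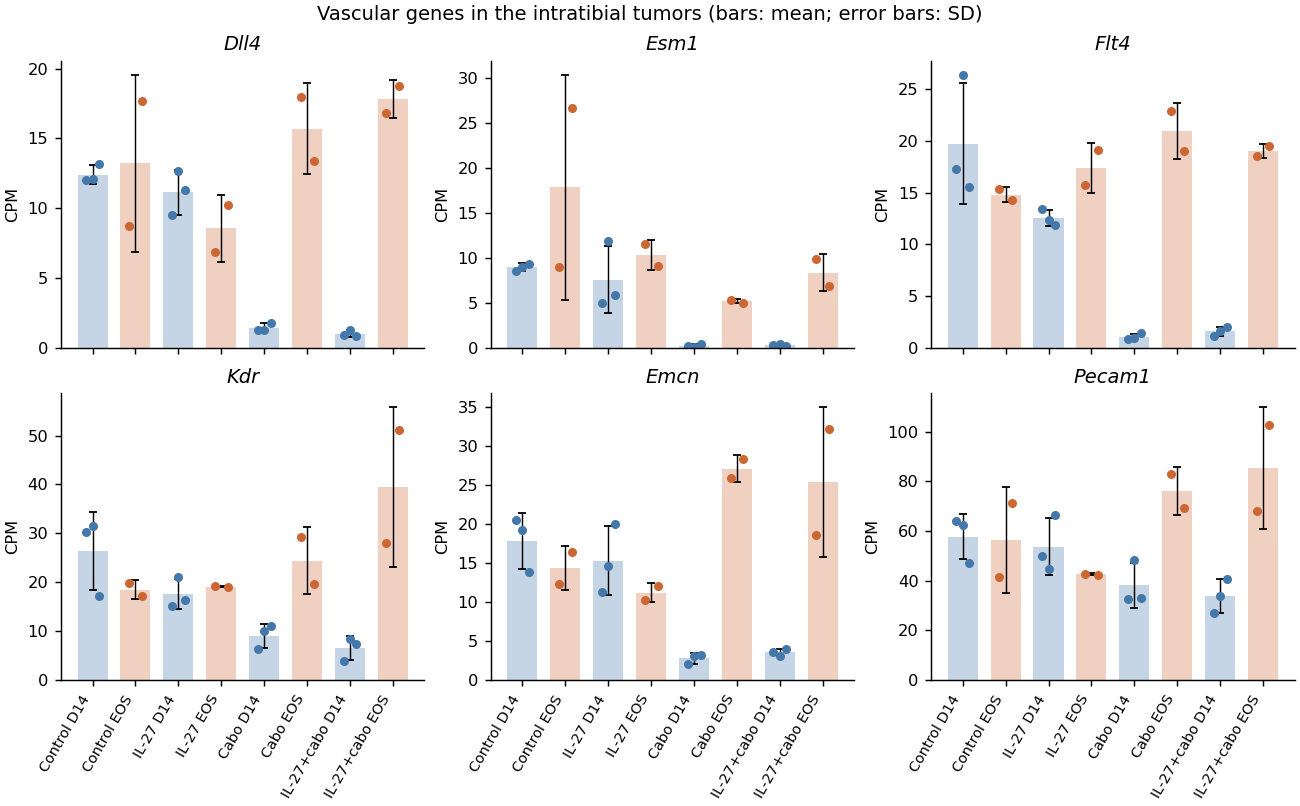
CPM of Dll4, Esm1, Flt4, Kdr, Emcn and Pecam1 in the 20 intratibial tumors by group, each point 1 tumor, with bars for means and error bars for the SD. Dll4 is near 1 CPM in the 3 D14 tumors of the combination and at 16.8 and 18.8 CPM in its EOS tumors, and the D14 tumors of cabo alone are also low, at 1.26 to 1.81 CPM.

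The pan-endothelial list held 28 genes that mark endothelial cells in general, all 28 of them tested. Of these, 27 had a log2 fold change above 0, and the EOS tumors were above all D14 tumors in 22, against 11.5% of all genes; without mouse 20 they were above in 25, against 18.9%. By the limits of the study 13 were higher and 0 lower (all genes, 0.733% and 2.42%). In the fit of all 20 tumors 10 rose and 0 fell (all genes, 0.288% and 0.0417%): Emcn, She, Kdr, Robo4, Mmrn2, Tie1, Erg, Adgrl4, Nos3 and Pecam1, of which Nos3 and Pecam1 lost the call without mouse 20. The median log2 fold change over the list was 1.38, and 1.57 without mouse 20, beside an all-gene median of -0.0433 and of -0.00195 without mouse 20.

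Within the list, Robo4, a receptor that stabilizes vessels, was 4.23, 3.40 and 3.46 CPM at D14 and 13.6 and 20.4 CPM at EOS. Tie1, a receptor tyrosine kinase related to the angiopoietin receptor, was 11.8, 5.11 and 5.87 CPM at D14 and 29.2 and 40.4 CPM at EOS. Erg, the ETS transcription factor of endothelial identity, was 1.31, 2.26 and 2.70 CPM at D14 and 7.56 and 10.6 CPM at EOS. In these 3 genes the harvests were separate with or without mouse 20. Vwf, the clotting factor stored by endothelial cells, was 4.62, 13.2 and 16.8 CPM at D14 and 23.6 and 4.78 CPM at EOS, so its harvests overlapped, with mouse 16 the highest of the 5 and mouse 28 near the lowest. Ecscr, an endothelial surface protein gene, was the 1 member below 0 (log2 fold change -0.40). Egfl7, a protein secreted by endothelial cells, was 32.4, 6.41 and 7.998 CPM at D14 and 17.7 and 26.6 CPM at EOS. Mouse 20 was the highest of the 5 for Egfl7, and the log2 fold change moved from 0.43 to 1.61 without it.

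**Figure D3:**
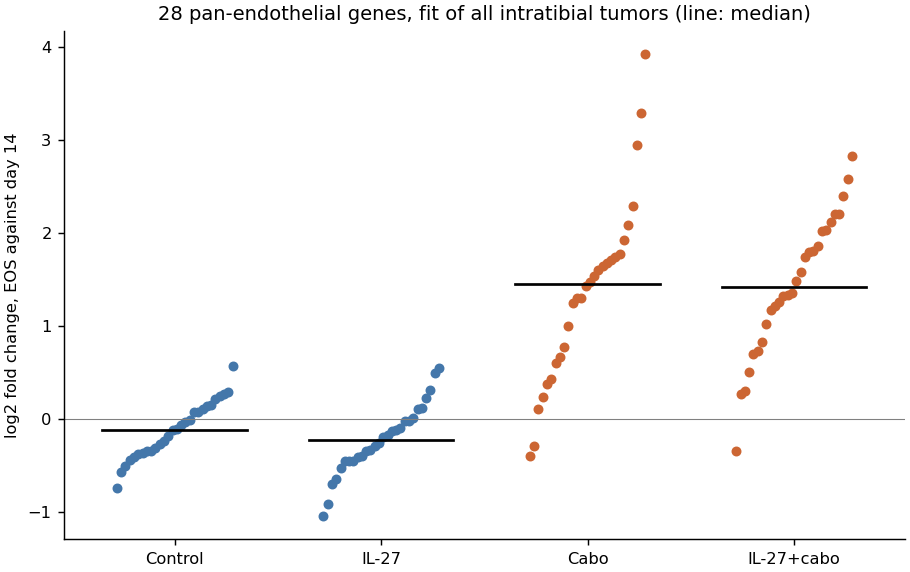
Log2 fold change from D14 to EOS of the 28 pan-endothelial genes in each treatment group, from the fit of all 20 tumors, each point 1 gene and the line the median. The medians are 1.42 in the combination, 1.45 with cabo alone, -0.23 with IL-27 alone and -0.12 in the controls.

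Of the tip cell and Notch list, 16 of 17 genes were tested and the EOS tumors were above all D14 tumors in 9, also without mouse 20 (all genes, 11.5% and 18.9%). The median log2 fold change was 0.96 (0.83 without mouse 20), and 4 genes rose in the larger fit (all genes, 0.288%), namely Dll4, Esm1, Kcne3 and Hey1. Hey1, a transcription factor induced by Notch, was 1.29, 0.664 and 0.605 CPM at D14 and 3.66 and 4.44 CPM at EOS (log2 fold change 2.20 ± 0.54, SE; edgeR adjusted p = 0.0220 in the larger fit). Nrarp, another Notch target, was 2.60, 0.826 and 1.55 CPM at D14 and 10.2 and 7.76 CPM at EOS, and did not pass (edgeR adjusted p = 0.0612). Both were thus higher in both EOS tumors. Angpt2, a vessel-destabilizing ligand, was 7.92, 8.07 and 10.1 CPM at D14 and 22.1 and 13.9 CPM at EOS, with a log2 fold change of 1.03 ± 0.36 (SE). Jag1, a Notch ligand that opposes Dll4 in sprouting, overlapped between harvests (log2 fold change -0.25 ± 0.44, SE), as did 6 further members of the list.

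Several further genes outside both lists rose in the larger fit, Pcdh12 and Clca2 from levels under 1 CPM. Pcdh12, an endothelial protocadherin, was 0.0749, 0.569 and 0.760 CPM at D14 and 10.4 and 15.7 CPM at EOS. Clca2, a chloride channel regulator, was 0, 0 and 0.127 CPM at D14 and 4.34 and 5.502 CPM at EOS, with mice 20 and 22 at 0 counts. Rasgrp3, an exchange factor that activates RAS proteins in endothelial cells, was 3.01, 3.07 and 3.21 CPM at D14 and 10.9 and 15.6 CPM at EOS. The D14 values of Rasgrp3 were nearly equal. Gimap6, a small GTPase gene of immune and endothelial cells, was 5.08 ± 0.895 CPM at D14 (SD, n = 3) and 11.4 and 16.3 CPM at EOS, and Mmp15, a membrane-bound matrix metalloproteinase, was 2.64, 2.71 and 3.44 CPM at D14 and 9.55 and 15.8 CPM at EOS. Neither overlapped.

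In the list of 10 VEGF ligands, receptors and co-receptors the EOS tumors were above all D14 tumors in 3 receptors (Kdr, Flt1 and Flt4; all genes, 11.5%) and in no ligand. Vegfa, the main ligand of Kdr, was 139, 148 and 176 CPM at D14 and 166 and 97.1 CPM at EOS, a log2 fold change of -0.25 ± 0.34 (SE) with overlapping harvests. Vegfc, a ligand of Flt4, was 82.5, 51.0 and 61.8 CPM at D14 and 43.8 and 47.4 CPM at EOS, both EOS tumors being below the D14 tumors. Vegfb was 81.8, 21.2 and 24.7 CPM at D14 and 17.3 and 17.9 CPM at EOS. Mouse 20 was the highest for Vegfb, and the log2 fold change of -1.33 became -0.39 without it. The list had a median log2 fold change of 0.0067 (-0.073 without mouse 20).

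Among the kinases that cabo inhibits and their ligands, 18 of 19 genes were tested and Ros1 was listed at 0 counts. The EOS tumors were above all D14 tumors in 7 and below in 1 (all genes, 11.5% and 10.8%), with a median log2 fold change of 0.40 (0.15 without mouse 20), and 2 genes rose in the larger fit (all genes, 0.288%), both of them VEGF receptors (Kdr and Flt4). Flt1, which encodes VEGFR1, was 12.8, 25.1 and 21.8 CPM at D14 and 55.3 and 44.2 CPM at EOS (log2 fold change 1.31 ± 0.36, SE). Kit, the stem cell factor receptor, was 2.32, 3.68 and 3.98 CPM at D14 and 9.54 and 9.39 CPM at EOS (log2 fold change 1.49 ± 0.38, SE; edgeR adjusted p = 0.0889 in the larger fit). Both were higher in both EOS tumors without being called. Met, the hepatocyte growth factor receptor, was 25.8, 99.98 and 77.4 CPM at D14 and 63.2 and 117 CPM at EOS. Axl, the GAS6 receptor, was 240.0, 587 and 509.8 CPM at D14 and 551 and 684 CPM at EOS. Met and Axl overlapped between harvests, mouse 20 being the lowest of the 5 in each. Ret was 2.12, 1.52 and 1.35 CPM at D14 and 0.611 and 0.605 CPM at EOS, the 1 kinase of the list below all D14 tumors.

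Lymphatic endothelial genes numbered 9, all tested, and their median log2 fold change was 1.33 (1.59 without mouse 20 and 0.546 without EOS mouse 16). The EOS tumors were above all D14 tumors in 4 (all genes, 11.5%), and in 5 without mouse 20 (18.9%). Only Flt4 rose in the larger fit (all genes, 0.288%). Lyve1, the hyaluronan receptor of lymphatic vessels and of some macrophages, was 1.93, 2.60 and 2.65 CPM at D14 and 6.55 and 9.54 CPM at EOS, a log2 fold change of 1.72 ± 0.39 (SE). Mmrn1, which encodes multimerin, was 0.225, 1.80 and 0.986 CPM at D14 and 8.28 and 3.23 CPM at EOS (log2 fold change 2.52 ± 0.87, SE). Prox1, the factor that sets lymphatic identity, overlapped between the harvests (log2 fold change 1.29 ± 0.64, SE).

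Pericyte genes, 12 tested, had a median of 1.01 (1.33 without mouse 20), with the EOS tumors above all D14 tumors in 6 (all genes, 11.5%), and in 8 without mouse 20 (18.9%). Mcam and Kcnj8 rose in the larger fit (all genes, 0.288%). Kcnj8, a potassium channel subunit of pericytes, was 2.02, 1.45 and 2.22 CPM at D14 and 10.2 and 6.202 CPM at EOS (log2 fold change 2.08 ± 0.44, SE), and its call (edgeR adjusted p = 0.0414) was lost without mouse 20. Abcc9, the partner of that channel, was 3.99, 13.3 and 9.505 CPM at D14 and 29.97 and 23.2 CPM at EOS. Rgs5, an abundant pericyte gene, was 66.5, 108 and 95.3 CPM at D14 and 65.4 and 96.3 CPM at EOS. Rgs5 and Pdgfrb, the pericyte receptor for PDGF-B, overlapped between harvests (log2 fold changes -0.17 ± 0.33 and 0.23 ± 0.37, SE). Of 11 vascular basement membrane genes the EOS tumors were above all D14 tumors in 4 (all genes, 11.5%), and Nid2, which encodes nidogen-2, rose in the larger fit, from 3.26, 18.1 and 10.6 CPM to 43.1 and 68.1 CPM (edgeR adjusted p = 0.0220). Col4a1, a collagen IV chain, was 179.6, 564 and 441 CPM at D14 and 836 and 1133 CPM at EOS, mouse 20 being the lowest. The median of that list was 0.56, and 0.093 without mouse 20.

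Whether these changes differed from the EOS against D14 change under the other treatments was tested in the fit of all 20 tumors. Against cabo alone, 0 of 21563 genes differed in either direction (0% in each direction), with a smallest edgeR adjusted p of 0.842. DESeq2 called 3 higher and 2 lower. By edgeR 825 of the 21563 genes had an unadjusted p under 0.05, a smaller share than the 0.05 expected when no gene changes. The change in Dll4 was 4.12 in the combination and 3.44 with cabo alone, a difference on the log2 scale of 0.68 (95% CI -0.24 to 1.60). For Flt4 the difference was -0.74 (95% CI -1.60 to 0.13), for Esm1 0.28 (95% CI -1.35 to 1.91) and for Emcn -0.46 (95% CI -1.36 to 0.44). The intervals of these 4 genes held 0, and they reached as far as 1.91 and -1.60, so differences of that size could have gone undetected. For Kdr the change was 2.58 in the combination and 1.43 with cabo alone, a difference of 1.15 (95% CI 0.06 to 2.24) that was not called after adjustment (edgeR adjusted p = 0.842).

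Against the controls, 15 genes changed more upward in the combination (0.0696%) and 2 more downward (0.00928%). By lowest p the 5 named were Ephb1, Dll4, Flt4, Robo1 and Ednrb, with differences of 4.95 ± 0.50, 4.03 ± 0.45, 4.00 ± 0.42, 3.39 ± 0.45 and 2.68 ± 0.36 (log2, SE). Their edgeR adjusted p lay between 0.000581 and 0.00472. In the controls themselves Dll4 moved by 0.09 from D14 to EOS. Larger differences with a higher p were among the other 10, for example 6.90 ± 1.16 for Clca2 and 5.10 ± 0.82 for Pcdh12. Mest, at 4.93 ± 0.66, had the same adjusted p as Robo1 and Ednrb. These 10 were Rasgrp3, Kdr, Kcne3, Mmp15, Clca2, Mest, Gimap6, Emcn, Pcdh12 and 4930502E18Rik. Lrrc39 and Gm37829 changed more downward, Lrrc39 with a difference of -2.54 ± 0.39 (SE; edgeR adjusted p = 0.0152). The means of Lrrc39 were 1.57 CPM at D14 and 4.10 CPM at EOS in the controls, and 4.17 and 1.88 CPM in the combination. Without D14 mouse 20 the counts were 27 upward and 6 downward. The downward count was also 4 without D14 mouse 24, 1 without D14 mouse 22 and 1 without EOS mouse 28.

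Against IL-27 alone, 17 genes changed more upward in the combination (0.0788%) and 2 more downward (0.00928%). Dll4 (4.502 ± 0.45), Ephb1 (4.24 ± 0.50), Flt4 (3.11 ± 0.41), Emcn (3.275 ± 0.44) and Ednrb (2.57 ± 0.36) had the lowest p, given as log2 differences with SE. In IL-27 alone Dll4 moved by -0.38 from D14 to EOS. The 2 downward genes were Syt11, a synaptotagmin of vesicle traffic (-1.24 ± 0.22), and Nkd1, a feedback inhibitor of Wnt signaling (-2.35 ± 0.42). The upward count was 32 without D14 mouse 20, 11 without D14 mouse 22 and 5 without EOS mouse 28, and the downward count lay between 0 and 4 as each of the 5 tumors was left out. Both comparisons use the same 5 combination tumors, so they are not independent of each other.

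The D14 level of Dll4 was low in both groups that had received cabo and not in the other 2 groups. It was 1.26, 1.26 and 1.81 CPM with cabo alone, 9.49 to 12.7 CPM with IL-27 alone and 11.99 to 13.2 CPM in the controls. At EOS the Dll4 level was 17.99 and 13.4 CPM with cabo alone, 8.73 and 17.7 CPM in the controls, and 6.87 and 10.2 CPM with IL-27 alone. The EOS combination tumors, at 16.8 and 18.8 CPM, thus lay within the range of the EOS controls and cabo tumors or less than 1 CPM above it.

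Of the 9 genes that fell in the fit of all 20 tumors, Syt11 was 123, 88.1 and 90.3 CPM at D14 and 47.7 and 45.6 CPM at EOS (log2 fold change -1.15 ± 0.33, SE; edgeR adjusted p = 0.00360 in the larger fit). Nkd1 was 38.9, 41.7 and 33.7 CPM at D14 and 8.09 and 10.01 CPM at EOS (log2 fold change -2.10 ± 0.33, SE; edgeR adjusted p = 0.00573). In both genes the tumors of a harvest lay close together and the harvests apart. Pdcd1lg2, which encodes the PD-1 ligand PD-L2, was 1.80, 1.58 and 1.92 CPM at D14 and 0.448 and 0.215 CPM at EOS. Lbp, the lipopolysaccharide-binding protein, was 14.1, 15.9 and 10.3 CPM at D14 and 1.34 and 2.30 CPM at EOS, and lost its call without mouse 20. Ighg2b, an immunoglobulin heavy chain constant gene, Ccn3 and D630003M21Rik were also among the 9.

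Skeletal muscle genes showed the greatest fold differences between the harvests among the lists examined, and none of them was called by edgeR. All 28 genes of the list were tested, the EOS tumors were below all D14 tumors in 24 (all genes, 10.8%), and 24 were lower by the limits of the study (all genes, 2.42%). The median log2 fold change was -4.26 (-4.00 without mouse 20), yet 0 of the 28 fell in the fit of all 20 tumors. In that fit the medians were -4.21 in the combination, -1.50 with cabo alone, -5.35 with IL-27 alone and -2.51 in the controls. In the 5 tumors 24 of the 28 muscle genes had an unadjusted p under 0.05, against 742 of all 19365 genes in either direction. DESeq2 called 24 of the 28, against 248 lower among all 19365 genes. Acta1, skeletal alpha-actin, was 1156, 818 and 412 CPM at D14 and 59.2 and 28.2 CPM at EOS (log2 fold change -4.22 ± 0.69, SE; edgeR adjusted p = 0.318 in the larger fit). Ckm, muscle creatine kinase, was 635, 269 and 81.9 CPM at D14 and 8.01 and 9.81 CPM at EOS. Ttn, the giant sarcomere protein titin, was 31.9, 149 and 104 CPM at D14 and 9.76 and 5.13 CPM at EOS. The D14 tumors varied among themselves by nearly 8-fold for Ckm, and the EOS tumors were below the lowest of them. Of the slow-fiber genes, Myh7, a myosin heavy chain, was 0.880, 0.623 and 0.521 CPM at D14 and had no count in either EOS tumor, while the troponin genes Tnnc1, Tnni1 and Tnnt1 overlapped between the harvests, as did the enolase gene Eno3. These troponin genes were highest in mouse 20, and without it their log2 fold changes moved from -2.51 to -0.54 (Tnnc1), from -2.28 to 0.058 (Tnni1) and from -3.53 to -0.045 (Tnnt1).

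The 12 genes with the lowest p on the lower side were mostly of muscle, and none of them fell in the larger fit. Mylk2, the skeletal myosin light chain kinase, came nearest, at 23.1, 35.8 and 16.6 CPM at D14 and 1.95 and 1.76 CPM at EOS (log2 fold change -3.78 ± 0.49, SE; edgeR adjusted p = 0.0679 in the larger fit). Hspb7, a small heat shock protein of muscle, was 64.7, 94.2 and 71.7 CPM at D14 and 5.85 and 3.78 CPM at EOS. Fbxo40, a muscle-specific F-box gene, was 12.002, 15.1 and 10.96 CPM at D14 and 0.814 and 0.565 CPM at EOS. Nrap, an anchor of forming myofibrils, was 48.3, 168 and 82.9 CPM at D14 and 3.49 and 3.23 CPM at EOS. The EOS values of these 4 genes were close to each other and more than 8-fold under the lowest D14 value. Smtnl1, a smoothelin-like muscle gene, was 11.2, 5.81 and 2.94 CPM at D14 and had no count at EOS, at least 163-fold lower, and Gal3st4, a sulfotransferase gene, was 1.10, 0.975 and 1.69 CPM at D14 and had no count at EOS, at least 30.9-fold lower (floor of 3 counts per library). The remaining 6 were Ankrd23, Myot, Lmod2, Mybpc1, Alpk3 and Klhl40. Klhl40, a kelch protein gene of skeletal muscle, was 16.3, 21.5 and 10.3 CPM at D14 and 1.80 and 1.87 CPM at EOS.

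Muscle transcripts thus differed between the harvests in the same tumors in which the vascular genes differed. The summed level of the 28 muscle genes was 6022, 5264 and 2184 CPM at D14 and 352 and 184 CPM at EOS. The summed level of the 28 pan-endothelial genes was 279, 282 and 317 CPM at D14 and 614 and 820 CPM at EOS. With the muscle score, the mean log2(CPM + 0.1) of the muscle list, added as a covariate to the fit of all 20 tumors after the data were seen, 25 genes rose and 0 fell, and all 25 were among the 71 called without it. These included Dll4, Flt4, Esm1, Emcn, Robo1, Ephb1 and Kcne3, while 4 pan-endothelial genes (Emcn, She, Robo4 and Tie1) remained called and Kdr did not. The pan-endothelial median in that fit was 1.75, against 1.42 without the covariate, and the tip cell and Notch median was 0.51, against 0.925. In the EOS tumors of cabo alone, mouse 19 had a muscle score of 4.14 and mouse 23 one of 1.82, and their endothelial scores were 4.15 and 3.87, both above the 2.47 to 2.86 of the D14 tumors of that group. In the EOS tumors of the combination the muscle scores were 2.41 and 1.05 and the endothelial scores 3.84 and 4.27. What part the muscle content had in the vascular values was not tested. The mitochondrially encoded genes, 13 of them, followed as a sign of RNA quality, had a mean log2(CPM + 0.1) of 10.84, 10.74 and 10.9 at D14 and of 10.24 and 10.26 at EOS. They too separated the harvests, and their part in the vascular, muscle and T-cell values was not tested.

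**Figure D4:**
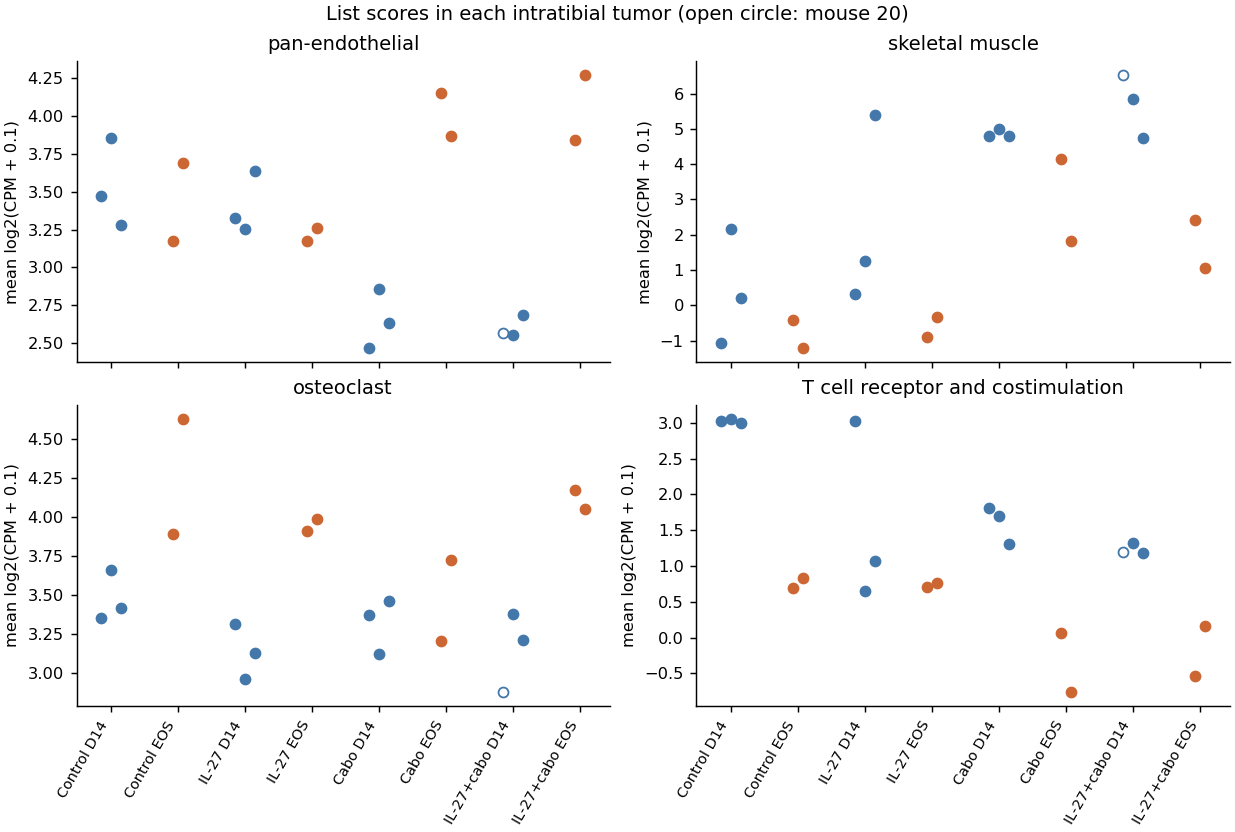
Mean log2(CPM + 0.1) of the pan-endothelial, skeletal muscle, osteoclast and T cell lists in each of the 20 intratibial tumors by group, each point 1 tumor. In the combination the endothelial score is 2.55 to 2.69 at D14 and 3.84 and 4.27 at EOS, and the muscle score 4.74 to 6.53 at D14 and 2.41 and 1.05 at EOS.

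Of 15 myogenic regulators and regeneration genes 12 were tested, 11 of them with a log2 fold change below 0, and none was called by edgeR in the larger fit. The EOS tumors were below all D14 tumors in 7 (all genes, 10.8%), and the median was -1.86 (-0.78 without mouse 20). Trim63, a ubiquitin ligase of muscle wasting, was 21.4, 37.5 and 14.7 CPM at D14 and 2.88 and 2.14 CPM at EOS (log2 fold change -3.31 ± 0.55, SE). Myf6, a myogenic transcription factor, was 12.2, 11.05 and 6.84 CPM at D14 and 1.10 and 0.646 CPM at EOS. Neither passed the adjustment. The regeneration genes Myh3 and Myh8, which encode the embryonic and perinatal myosin heavy chains, had log2 fold changes of 0.45 ± 1.49 and -0.12 ± 1.75 (SE), and their harvests overlapped.

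Osteoclast genes, 17 tested, were above all D14 tumors at EOS in 9 (all genes, 11.5%), with a median log2 fold change of 0.735 (0.53 without mouse 20), 5 were higher by the limits of the study (all genes, 0.733%), and 0 rose in the larger fit (edgeR). In the 5 tumors 7 had an unadjusted p under 0.05, as did 742 of all 19365 genes in either direction. The list medians in the larger fit were 0.745 in the combination, 0.022 with cabo alone, 0.90 with IL-27 alone and 0.63 in the controls. Mmp9, the gelatinase of osteoclasts and neutrophils, was 55.0, 103 and 71.9 CPM at D14 and 540.2 and 251 CPM at EOS (log2 fold change 2.36 ± 0.45, SE; edgeR adjusted p = 0.0715 in the larger fit). Acp5, the tartrate-resistant acid phosphatase, was 86.4, 49.2 and 32.7 CPM at D14 and 224 and 143 CPM at EOS (log2 fold change 1.67 ± 0.50, SE). Ctsk, the collagen-degrading cathepsin K, was 126, 93.7 and 75.4 CPM at D14 and 246 and 167 CPM at EOS (log2 fold change 1.03 ± 0.37, SE). For each of these 3 resorption enzymes both EOS tumors were above the D14 tumors, mouse 16 being the higher. Ocstamp, which is needed for osteoclast fusion, was 1.10, 3.11 and 1.25 CPM at D14 and 9.10 and 8.64 CPM at EOS, and Oscar, an osteoclast immunoreceptor, was 0.917, 1.37 and 1.08 CPM at D14 and 5.31 and 3.63 CPM at EOS. Their harvests did not overlap. Tnfsf11, the osteoclast growth factor RANKL, and its receptor Tnfrsf11a did overlap. Of the 17 osteoblast and osteocyte genes only 9 were tested, with a median of -0.049 (-0.30 without mouse 20).

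T-cell genes lay lower at EOS. All 17 genes tested had a log2 fold change below 0, with a median of -1.61 (-1.48 without mouse 20). The other treatments also had medians below 0. In the larger fit they were -1.55 in the combination, -2.32 with cabo alone, -1.375 with IL-27 alone and -2.50 in the controls. The EOS tumors were below all D14 tumors in 11 (all genes, 10.8%), and in 15 without mouse 20 (all genes, 19.3%), but 0 fell in the larger fit (edgeR). In the 5 tumors 8 had an unadjusted p under 0.05, against 742 of all 19365 genes in either direction. Cd3e, a chain of the T-cell receptor complex, was 1.57, 1.73 and 1.56 CPM at D14 and 0.0814 and 0.565 CPM at EOS (log2 fold change -2.36 ± 0.89, SE), and Icos, a costimulatory receptor, was 1.35, 3.66 and 3.31 CPM at D14 and 0.611 and 0.767 CPM at EOS. Foxp3, the factor of regulatory T cells, was 1.24, 3.51 and 2.80 CPM at D14 and 0.339 and 0.538 CPM at EOS (log2 fold change -2.53 ± 0.65, SE). In these genes each EOS tumor was under the lowest D14 tumor, at levels that rest on few counts. Of the 17 genes of the CD8, cytotoxic and NK cell list 15 were tested, and 13 of them had a log2 fold change below 0, with a median of -0.62 (-0.56 without mouse 20). The EOS tumors were below all D14 tumors in 4 of the 15 (all genes, 10.8%) and above all of them in 0. In this list 0 genes were called by edgeR in the larger fit, and 0 had an unadjusted p under 0.05 in the 5 tumors. Ccl5, a chemokine of activated T and NK cells, was 96.6, 24.5 and 21.7 CPM at D14 and 6.61 and 18.3 CPM at EOS, without overlap and with mouse 20 the highest. Its log2 fold change was -2.01 ± 0.90 (SE), and -0.90 without mouse 20. Of the 2 genes with a log2 fold change above 0, Gzmb, granzyme B, was 7.85, 13.01 and 10.4 CPM at D14 and 12.2 and 18.5 CPM at EOS, with overlap.

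The checkpoint receptor Pdcd1, PD-1, was 2.53, 3.64 and 2.84 CPM at D14 and 0.611 and 0.767 CPM at EOS (log2 fold change -2.15 ± 0.47, SE), whereas its ligand gene Cd274 overlapped (-0.36 ± 0.40, SE). Of the 13 checkpoint genes 6 were below all D14 tumors (all genes, 10.8%), the median was -0.69 (-0.72 without mouse 20), and Pdcd1lg2 alone fell in the larger fit (all genes, 0.0417%). Of 10 B cell and plasma cell genes tested, 8 had a log2 fold change below 0 and 2 above. The EOS tumors were below all D14 tumors in 5 (all genes, 10.8%), and 0 were called by edgeR in the larger fit. In the 5 tumors 2 were lower at an unadjusted p under 0.05, against 742 of all 19365 genes in either direction. Igkc, the kappa light chain constant gene, was 44.8, 9.38 and 7.91 CPM at D14 and 0.258 and 0.995 CPM at EOS, and Jchain, the joining chain of secreted antibodies, was 3.35, 2.60 and 1.08 CPM at D14 and 0.217 and 0.269 CPM at EOS. Mouse 20 had the highest level of both. Ccr7, the chemokine receptor of lymph node homing, was 3.48, 4.97 and 4.03 CPM at D14 and 0.895 and 1.56 CPM at EOS (edgeR adjusted p = 0.0732 in the larger fit), and Ccl22, a chemokine of dendritic cells, was 7.45, 5.12 and 5.18 CPM at D14 and 1.72 and 1.68 CPM at EOS. Of 12 dendritic cell genes, 8 had a log2 fold change below 0, the EOS tumors were above all D14 tumors in 2 and below in 2 (all genes, 11.5% and 10.8%), and the median was -0.44 (-0.12 without mouse 20). Zbtb46, a transcription factor of classical dendritic cells that endothelial cells also express, rose in the larger fit, from 1.50, 1.49 and 1.42 CPM to 6.02 and 3.13 CPM (edgeR adjusted p = 0.0349).

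Macrophage genes, 18 tested, had a median of -0.0038 (-0.15 without mouse 20). Cd163, a scavenger receptor of tissue macrophages, was 0.468, 2.36 and 2.30 CPM at D14 and 4.45 and 5.39 CPM at EOS, and Arg1, arginase-1, was 180.4, 155 and 175 CPM at D14 and 117 and 46.2 CPM at EOS (log2 fold change -1.08 ± 0.46, SE). The 2 genes thus differed in opposite directions without being called. Mast cell genes, 8 of 11 tested, had a median of 1.50 (1.68 without mouse 20). The EOS tumors were above all D14 tumors in 3 of these genes (all genes, 11.5%), and 0 were called by edgeR in the larger fit. In the 5 tumors 3 were higher at an unadjusted p under 0.05, against 742 of all 19365 genes in either direction. The mean log2(CPM + 0.1) of the mast cell genes was 1.28, 1.16 and 1.09 at D14 and 1.36 and 2.88 at EOS, so mouse 28 stood apart and mouse 16 lay near the D14 tumors. Cma1, the mast cell chymase, was 0.506, 0.257 and 0.591 CPM at D14 and 2.25 and 3.19 CPM at EOS (log2 fold change 2.55 ± 0.57, SE).

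**Figure D5:**
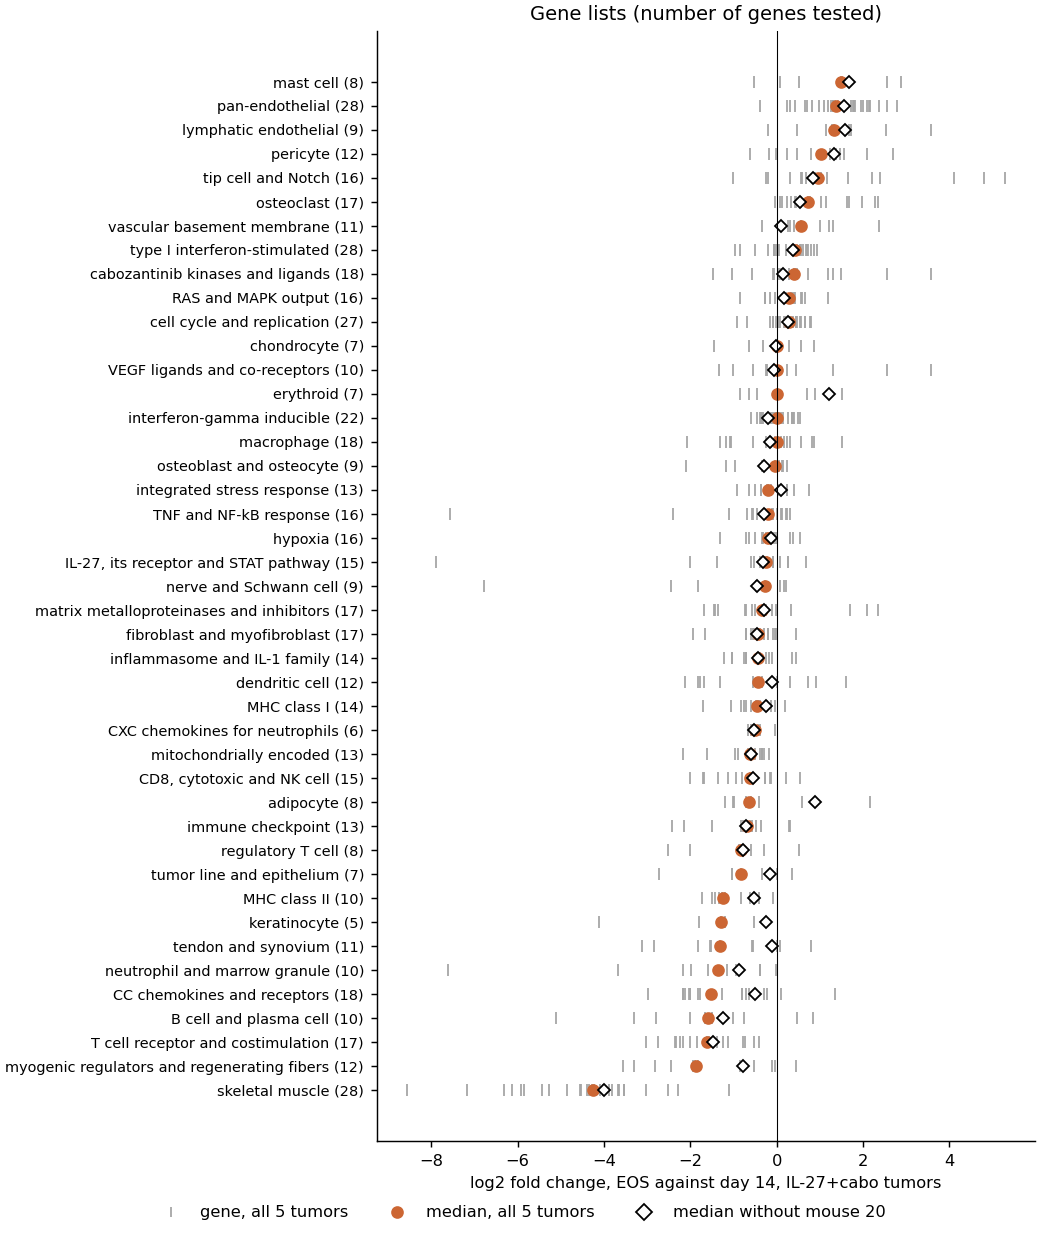
Log2 fold change from D14 to EOS for each of 43 gene lists, with a tick for each gene and markers for the median in all 5 tumors and without D14 mouse 20. The skeletal muscle median is -4.26, the T cell median -1.61 and the pan-endothelial median 1.38, beside an all-gene median of -0.0433.

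The type I interferon-stimulated list, 28 genes tested, had a median log2 fold change of 0.43 (0.37 without mouse 20), and in 0 of the 28 genes were the 2 harvests separate with EOS higher. Irf7, which amplifies the interferon response, was 83.9, 80.8 and 45.5 CPM at D14 and 43.9 and 148 CPM at EOS, and Cxcl10, an interferon-induced chemokine, was 57.3, 80.6 and 39.7 CPM at D14 and 29.6 and 115 CPM at EOS. In both genes mouse 28 was the highest of the 5 and mouse 16 the lowest, so the EOS tumors differed from each other more than the harvests did. For Cxcl10 the difference in change from cabo alone was 2.18 (95% CI -0.30 to 4.66). The 22 interferon-gamma inducible genes had a median of -0.0016 (-0.20 without mouse 20). Of the MHC class II genes, Cd74, the invariant chain, was 347, 128 and 83.7 CPM at D14 and 25.8 and 92.0 CPM at EOS (log2 fold change -1.73, and -0.86 without mouse 20), and the median over 10 genes moved from -1.24 to -0.53 without mouse 20.

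Transcripts assigned to the IL-27 subunit genes were low. Il27, which encodes the p28 subunit, was 0.805, 0.298 and 0.141 CPM at D14 and had no count in either EOS tumor, and Ebi3, the partner subunit, was 5.49, 3.34 and 2.84 CPM at D14 and 2.16 and 3.40 CPM at EOS. The plasmid was given into muscle, and its transcript was not measured apart from that of the mouse gene. Il27ra, the receptor, overlapped between harvests. Stat4, a transducer of IL-12 family cytokines, was 2.19, 3.67 and 2.73 CPM at D14 and 1.13 and 1.09 CPM at EOS (log2 fold change -1.39 ± 0.46, SE).

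Of 27 cell cycle genes the EOS tumors were above all D14 tumors in 14 (all genes, 11.5%), and in 21 without mouse 20 (all genes, 18.9%), with medians of 0.28 and 0.25. None of the 27 was called by edgeR in the larger fit, and 0 had an unadjusted p under 0.05 in the 5 tumors. Mki67, which encodes the proliferation antigen Ki-67, was 90.1, 268 and 270.4 CPM at D14 and 325 and 297 CPM at EOS. Mouse 20 was far below the other 4, and the log2 fold change of 0.56 became 0.20 without it. Ccnb1, the mitotic cyclin B1, was 51.0, 121 and 118 CPM at D14 and 173 and 164 CPM at EOS (log2 fold change 0.79, and 0.49 without mouse 20). The 16 hypoxia genes had a median of -0.20 (-0.14 without mouse 20), and the 16 genes of RAS and MAPK output had a median of 0.28 (0.18). Of the epithelial genes of the tumor line, Epcam was 6.18, 5.70 and 3.72 CPM at D14 and 2.85 and 2.30 CPM at EOS, and Krt8, a luminal keratin, was 207, 49.5 and 64.4 CPM at D14 and 261 and 21.97 CPM at EOS, the EOS tumors being the highest and the lowest of the 5.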

How the data were processed

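Poly(A) RNA of 5 tumors (3 of the D14 and 2 of the EOS combination group) was compared, with the other 15 intratibial tumors used in a joint fit. The authors deposited a table of raw counts per Ensembl gene, with no normalization. Their methods and the submitters' processing notes name FastQC, HISAT2, StringTie and DESeq2 without versions. The notes name the human build GRCh38 although the identifiers are mouse, and the counting program is not given in the sources used here. Of 55401 identifiers, 55141 were matched by identifier to GENCODE M21 (GRCm38) for names and positions. Of counts from 1 to 20, 31.7% to 35.5% were multiples of 4 in the 5 libraries, and counts divided by 4 were tried as an alternative. Replicates were separate mice, and the labels pair none of the EOS with the D14 mice.

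Counts were filtered with filterByExpr, normalized with TMM and tested with edgeR 4.0.16 (quasi-likelihood test, two-sided, Benjamini-Hochberg over all genes tested, called at an adjusted p under 0.05) in R 4.3.3. The fit of 5 tumors leaves 3 residual degrees of freedom. CPM are counts scaled to a common library size by TMM. Totals of 63729005 or more counts per tumor put 3 counts, the floor used for a gene with no count, at 0.0404 to 0.0562 CPM. Differences in change were contrasts in 1 fit of 20 tumors in 8 groups. DESeq2 1.42.0 served as an alternative. Scripts were tested on simulated data.

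Named were the members of the gene lists, the 12 genes with the lowest p in each direction (protein-coding, absolute log2 fold change of at least 1.5, no overlap, mean of at least 1 CPM in the higher group), and the 5 leading genes in each direction of each difference in change. Other called genes were named after their values were seen. The comparison and the lists were chosen with earlier results of these data known. Some genes are not reported here.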

Additional observations from a re-analysis of the deposited data

Results flagged for a closer look

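The change from D14 to EOS in the combination differed from that in the controls, by a test of the difference itself in the fit of all 20 intratibial tumors (edgeR quasi-likelihood test with Benjamini-Hochberg adjustment). The log2 differences were 4.95 for Ephb1 (adjusted p = 0.000581), 4.03 for Dll4 (0.000812), 4.00 for Flt4 (0.000581), 3.39 for Robo1 (0.00472) and 2.68 for Ednrb (0.00472). Lrrc39 differed downward, by -2.54 (0.0152), with means of 1.57 CPM at D14 and 4.10 CPM at EOS in the controls.

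Against IL-27 alone the same test gave 4.502 for Dll4 (adjusted p = 0.000614), 4.24 for Ephb1 (0.00261), 3.11 for Flt4 (0.00667), 3.275 for Emcn (0.00667) and 2.57 for Ednrb (0.00844). Syt11 and Nkd1 differed downward, by -1.24 (0.0493) and -2.35 (0.0493). The muscle score of the D14 tumors was 4.74 to 6.53 in the combination, -1.06 to 2.15 in the controls and 0.318 to 5.39 with IL-27 alone, and its part in these differences was not tested.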

How the results depend on the processing

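With 2 tumors against 3, the test and the tumors in the fit decided whether any gene was called. Where edgeR on the 5 tumors called 0, DESeq2 called 78 higher and 248 lower, the fit of all 20 tumors 62 and 9, and the latter with the muscle list as covariate, chosen after seeing the data, 25 higher. Without mouse 20, DESeq2 called 175 and 379, the fit of all tumors 70 and 22, and leaving out a further tumor gave 0 to 442 higher and 0 to 783 lower, where a lone tumor is assumed to vary like the other group. By the limits of the study the fit of all tumors gave 248 higher and 1102 lower, and DESeq2 859 lower. For the difference in change, DESeq2 gave 3 and 2 against cabo, 118 and 73 against control, and 81 and 29 against IL-27. Leaving out 1 tumor gave 12 to 27 higher and 1 to 6 lower against control, and 5 to 32 higher and 0 to 4 lower against IL-27. Lower calls against control were 1 without a filter and 4 with the GC trend removed, and against IL-27 they were 0 without a filter, 1 with the GC trend removed and 1 with RLE size factors. Medians with 1 tumor left out lay at 1.118 to 1.622 for pan-endothelial, 0.8333 to 1.102 for tip cell and Notch, 0.546 to 1.891 for lymphatic, 0.9626 to 1.333 for pericyte and -2.155 to -1.385 for T cell genes. With the muscle covariate they were 1.749, 0.5135, 1.553 (pericyte), 0.4924 (osteoclast) and -2.256 (T cell), and the tip cell median was 0.8188 with the GC trend removed. The cause of these shifts was not tested.

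Of 140 genes followed, 123 kept the sign of their log2 fold change in every setting. With 1 tumor left out, the log2 fold change ran from below to above 0 in the other 17. Leaving out EOS mouse 28 or mouse 16 set both ends for Adgre1 (-0.60 to 0.69), Col1a1 (-0.87 to 0.065), Csf1r (-0.26 to 0.64), Cxcl10 (-0.99 to 0.94), Cxcl9 (-1.81 to 0.23), Il27ra (-0.33 to 0.16), Irf7 (-0.67 to 1.04), Jag1 (-0.70 to 0.11), Met (-0.080 to 0.77), Rgs5 (-0.45 to 0.076), Tnfrsf11a (-0.073 to 0.83), Vegfa (-0.70 to 0.11) and Vwf (-1.29 to 1.05). Leaving out D14 mouse 20 set 1 end for Ecscr (-0.64 to 0.011), Hras (-1.41 to 0.15), Pdgfrb (-0.017 to 0.44) and Krt8 (-2.34 to 1.32). No paired analysis was possible because the EOS and D14 mice share no replicate number.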

Other observations

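Some genes of other tissues next to the bone lay lower at EOS, and none of those named here was called. Among 9 nerve and Schwann cell genes, 3 had a log2 fold change above 0 and the EOS tumors were below all D14 tumors in 3 (all genes, 10.8%). Sox10, the Schwann cell transcription factor, was 1.67, 1.92 and 2.20 CPM at D14 and 0.421 and 0.296 CPM at EOS (log2 fold change -2.44 ± 0.53, SE). Its harvests did not overlap. Among 11 tendon and synovium genes, of which 3 had a log2 fold change above 0, Prg4, the lubricin of joint surfaces, was 9.55, 7.01 and 4.06 CPM at D14 and 1.52 and 2.50 CPM at EOS, and Fmod, the collagen-binding fibromodulin, was 31.7, 5.01 and 4.65 CPM at D14 and 1.25 and 2.09 CPM at EOS. Mouse 20 was the highest in both, the log2 fold change of Fmod moved from -3.13 to -1.54 without it, and the list median moved from -1.31 to -0.11.

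The mitochondrially encoded genes were lower in 9 of 13 without overlap (all genes, 10.8%), and in all 13 without mouse 20 (all genes, 19.3%), with medians of -0.61 and -0.60. Of the 13, 0 were called by edgeR in the larger fit and 0 had an unadjusted p under 0.05 in the 5 tumors. Erythroid genes (7 tested) moved from a median of 0.0045 to 1.20 without mouse 20, and adipocyte genes (8 tested) from -0.65 to 0.89.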
